A study of Mus musculus with 22 samples.

Results

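The normal forelimb of the mouse embryo was compared with a universal mouse reference RNA on the 9 wild-type arrays of a series of 22 arrays, chosen by their titles. The series set out to compare forelimbs with and without Chsy1, a chondroitin sulfate synthase, and its 13 knockout arrays were not used here. Each wild-type sample was total RNA of forelimbs of strain 129 embryos at day 13.5, labelled with Cy5. Each was hybridised on its own array together with Cy3-labelled Universal mouse reference (Stratagene), a commercial pool of RNA from mouse cell lines. The labels do not say whether a sample is 1 embryo or a pool, so each p-value covers no more than the variation among these 9 samples, part of which may be technical. The reference is 1 RNA, whose own spread is not measured, and the dyes were never swapped, so a dye effect and a difference from the reference cannot be told apart. The number of arrays limits the precision.

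At this stage the limb is a growing bud in which mesenchyme condenses into cartilage models of the bones, with joints, tendons and muscles forming around them. Muscle precursors, vessels, nerves and their Schwann cells enter the bud from outside, a thin ectoderm covers it, and blood circulates through it. Mineralised bone is not yet laid down in quantity. The reference RNA, in contrast, comes from cells growing in culture. Each value below is a log2 ratio of forelimb to reference, so 1 means 2-fold higher in forelimb and -1 means 2-fold lower. In whole tissue, fewer cells of a type and less RNA per cell cannot be told apart.

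Of 43379 non-control spots per array, 27856 to 30013 were well above background in the forelimb channel and 25524 to 29031 in the reference channel. Median signals were 102.8 to 178.9 units in Cy5 and 90.9 to 104.2 in Cy3, over median backgrounds of 54 to 57 and 43 to 48.5. Each array correlated with the mean of the others, across genes, at 0.944 to 0.977, and no pair held identical values. Among 14604 genes above background in both channels on all 9 arrays, the median SD between arrays was 0.25.

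The forelimb differed from the reference by more than 2-fold, in the test described here, at 3078 genes that were higher (16.1% of 19073 tested) and 3006 that were lower (15.8%). This count came from limma's treat test against a 2-fold difference, with a Benjamini-Hochberg adjusted p under 0.05. For 742 of the higher genes no array had the reference well above background, and for 322 of the lower genes none had forelimb so. Such genes allow only a bound, a smallest fold difference, and the probe filter all but fixed the direction of their call. Of the 905 and 327 genes with such a bound, called or not, the bound was over 2-fold at 200 and 56. All arrays lay on the same side of 0 for 3068 of the higher and 2997 of the lower genes. The median gene lay at 0.08. Of the genes measured in both channels on every array, 203 were called higher at over 16-fold and 146 were called lower at over 16-fold. With a background correction that shrinks dim signals (normexp and loess), 1449 genes were higher and 1335 lower, and all 6084 called genes kept their sign.

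The promoters shown next belong to members of a group that was low in forelimb and of a group that was high. Ifit1, Isg15 and Bst2, genes induced by interferon, were lower than in the reference, while the muscle genes Acta1, Mylpf and Myl1 were higher. Each sequence ends at the base before the RefSeq transcript start (GRCm38.p6) and reads 5′ to 3′ on the gene's strand. Capitals in the first 3 mark the core of the interferon-stimulated response element, which is GAAA, any 2 bases and GAAA again, on either strand. Capitals in the last 3 mark CAGCTG, a palindromic form of the E-box that myogenic factors are known to bind.
Ifit1 (chr19:34640769-34640888, + strand): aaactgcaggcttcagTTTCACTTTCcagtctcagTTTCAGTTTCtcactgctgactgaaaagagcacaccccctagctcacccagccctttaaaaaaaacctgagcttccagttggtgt
Isg15 (chr4:156200819-156200908, - strand): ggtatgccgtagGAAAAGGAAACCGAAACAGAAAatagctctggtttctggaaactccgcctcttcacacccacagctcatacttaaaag
Bst2 (chr8:71537473-71537612, - strand): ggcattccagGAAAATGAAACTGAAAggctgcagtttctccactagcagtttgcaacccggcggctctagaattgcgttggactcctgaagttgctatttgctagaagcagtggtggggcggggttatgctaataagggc
Mylpf (chr7:127211538-127211607, + strand): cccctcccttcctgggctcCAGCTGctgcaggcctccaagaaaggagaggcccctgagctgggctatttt
Myl1 (chr1:66945057-66945296, - strand): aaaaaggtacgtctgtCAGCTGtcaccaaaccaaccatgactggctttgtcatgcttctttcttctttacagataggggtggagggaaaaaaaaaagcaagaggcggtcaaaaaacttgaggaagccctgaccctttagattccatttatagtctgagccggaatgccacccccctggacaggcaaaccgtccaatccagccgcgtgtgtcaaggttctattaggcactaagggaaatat
Acta1 (chr8:123894776-123895015, - strand): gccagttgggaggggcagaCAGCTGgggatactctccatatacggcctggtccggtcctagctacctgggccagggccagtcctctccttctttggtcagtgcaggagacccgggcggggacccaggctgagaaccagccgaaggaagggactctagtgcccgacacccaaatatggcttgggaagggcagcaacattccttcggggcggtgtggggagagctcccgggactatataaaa

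Motifs were counted over the 250 bases before the start. A list gene counted if any of its promoters held the motif, while the share of all is per promoter, so the units differ. The response element core was found for 5 of 14 genes of the interferon and antigen presentation list. Of 32851 promoters of the same length, 2.98% held it. CAGCTG was found for 11 of 24 genes of the contractile list, against 13.0% of all promoters. Isg15 held 3 overlapping matches of that core, Bst2 held 2 that overlap and Ifit1 held 2 apart. For comparison, 4 of the 14 interferon genes held CAGCTG and 0 of the 24 contractile genes held the interferon core. Of the 9 erythroid genes with a promoter sequence, 2 held the GATA motif AGATAA on either strand, which 9.99% of all promoters hold. The TATA box letters TATAAA were found for 5 of these erythroid genes, against 12.4% of all promoters. They were also found for 4 of the 14 interferon genes and 6 of the 24 contractile genes. A motif of the Klf type, CCACACCC, was found for 0 of the erythroid genes and in 3.2% of all promoters. Another pair of motifs was searched by name, MEF2, found for 3 contractile genes (2.92% of all promoters), and CArG, also found for 3 (1.47%). All motifs were searched on both strands, and MEF2 matches can overlap TATAAA. The motifs were chosen with the ratios known, and a match describes letters in these windows, not a bound site.

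Within the HoxA and HoxD clusters, the late genes were far above the reference and the early ones were not. Hox genes encode transcription factors, and the late members of HoxA and HoxD act in the outer limb. All 4 tested HoxA genes from Hoxa9 onward and all 5 tested HoxD genes from Hoxd9 onward were higher, while none of the 7 HoxA and 2 HoxD genes before them was called. Hoxa13 read 4.85, 5.13 and 5.59 on its lowest, median and highest array, with the reference above background on 1 array. With normexp and loess Hoxa13 read 2.12. Hoxd13 read 7.37, 7.78 and 8.92 on its lowest, median and highest array. All of its arrays were far above 0, but its 2 probes stood apart at 5.57 and 10.15, and the probe with the larger ratio had no array with the reference well above background. Hoxd11 was at least 3.66-fold higher (adjusted p = 7.92e-11), a bound because no array had the reference well above background. Here and below, an adjusted p beside a bound belongs to the treat test of the deposited ratio, and the bound itself was not tested. A gene with a bound passed the probe filter only through its brighter channel. The direction of its call was thus all but fixed by the filter, and the adjusted p is no support for that direction. In HoxB and HoxC, limma's treat called 0 of 16 tested genes higher, also 0 at an unadjusted p under 0.05, and 7 lower. The lower shares were 37.5% in HoxB and 50% in HoxC, against 15.8% of all genes. Hoxb13, a gene of the tail end of the body, read -4.47, -3.10 and -2.46 (lowest, median, highest), with forelimb above background on 3 arrays. Hoxc6 was lower at -2.68 ± 0.44 (SD, n = 9, adjusted p = 3.92e-07). The lower calls of Hoxb13, Hoxb4, Hoxb5 and Hoxc8 were lost with normexp and loess (-1.02, -0.61, -0.74 and -0.32, each with an adjusted p of 1), and so was the higher call of Hoxd12 at 0.85. The call of Hoxc9 at -1.31 was lost when any of arrays 1, 2, 4, 5 or 8 was left out (adjusted p = 0.0505 to 0.062). The HoxC median of -0.38 became 0.10 with Hoxc8, not well above background in forelimb, at its bound of at least 1.25-fold lower, and 0.62 over the HoxC genes above background in both channels on all arrays.

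**Figure D1:**
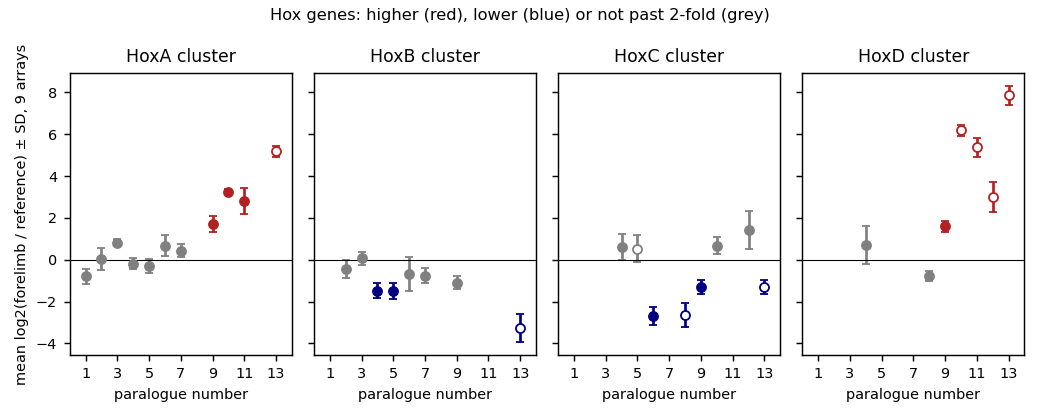
Mean log2 ratio of forelimb to reference (y axis) against paralogue number (x axis) for each Hox cluster, with bars for the SD over 9 arrays; filled circles were above background in both channels on all arrays, open ones were not. The red circles, called higher, are the late HoxA and HoxD genes, and the blue circles, called lower, are in HoxB and HoxC.

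The label of the tissue was checked against the factors that mark limb type. Tbx5, the T-box factor that starts the forelimb, read 2.37, 4.58 and 5.15 on its lowest, median and highest array, a mean of 4.32 ± 0.82 (SD, n = 9, adjusted p = 1.58e-07). All arrays were above 0, but wild-type 2 stood below the others, and the reference was above background on 4 arrays. Its tested probe lies at chr5:120144695-120144754 (mm8), and its other probe was above background in forelimb on 1 array. Pitx1, known as a hindlimb factor, was also higher. It read 5.53, 5.82 and 6.31, a mean of 5.88 ± 0.24 (adjusted p = 1.60e-12), on a single probe at chr13:55834678-55834737. Both channels were above background on every array, so for Pitx1 each ratio had a measured signal on both sides. Tbx4, the other factor known from hindlimb, was called higher at a deposited ratio of 3.34 ± 0.38 (adjusted p = 5.94e-09). Its bound was only 1.47-fold, under the 2-fold of that test, and is a bound for the same reason as in Hoxd11. On the normexp and loess scale, which shrinks dim signals, Pitx1 read 5.64 and Tbx5 2.20, both still called, while Tbx4 read 0.61 and was not. Isl1, which acts early in hindlimb and in sensory neurons, read 4.50 ± 0.48, or 1.71 with normexp and loess. Its probe as a whole was above background in the reference on 0 arrays, and some of its spots were on 5. Whether tissue other than forelimb was present was not tested.

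Transcription factors of limb mesenchyme were mostly high. Of 27 tested genes limma's treat called 20 higher, 74.1% against 16.1% of all genes. It called 0 lower, also 0 lower at an unadjusted p under 0.05, and the list median was 2.07 against 0.08 over all genes. Msx2, a factor of the bud's margin and a BMP target, read 6.54, 6.99 and 7.22, and with normexp and loess 3.45. The probe as a whole was above background in the reference on 0 arrays, and some of its spots were on 4. Meox2 and Meox1, factors of the somite-derived muscle lineage, reached 5.79 ± 0.20 and 4.91 ± 0.41. The Meox2 probes stood apart at 4.35 and 7.23, with the reference above background on 9 and 0 arrays. Lhx9, which acts in outgrowth, reached 5.45 ± 0.47. Twist1 differed little between arrays, from 2.87 to 3.31. Shox2, which shapes the upper arm, ranged from 2.14 to 3.85. Prrx1, the gene used most often to mark limb mesenchyme, was not called. Its mean was 0.72 ± 0.38 over 6 probes that spread from -0.51 to 1.78. Lmx1b, the factor of the back of the limb, read 1.65 ± 0.65, with the reference above background on 1 array, and was not called with normexp and loess at 0.33.

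The cartilage programme was high from regulators to matrix. Matrix genes were higher at 18 of 20, 90% against 16.1% of all genes, with a median of 4.60. Col2a1, the main collagen of cartilage, read 4.02, 4.55 and 4.99, and Acan, its aggregating proteoglycan, 3.67, 4.28 and 4.52. Every array lay above 3 for both genes. Hapln1, which links aggrecan to hyaluronan, reached 6.57 ± 0.66, and Epyc, a small proteoglycan of the growth plate, 6.39 ± 0.34, each with the reference above background on 1 array. With normexp and loess Hapln1 and Epyc read 2.91 and 2.76. Matn3, a matrilin, was at least 3.39-fold higher (adjusted p = 7.12e-09). Regulators were higher at 10 of 14, 71.4% against 16.1% of all genes. Sox9, the master factor of chondrocytes, read 2.75, 2.97 and 3.36, and its partner Sox6 averaged 4.26 ± 0.34, or 1.59 with normexp and loess. The 4 tested Sox6 probes spread from 2.79 to 6.00. The reference was above background on 6 arrays for the highest of them and on 0 or 1 for the others. Pthlh and its receptor gene Pth1r, which hold chondrocytes in proliferation, reached 4.73 ± 0.50 and 4.62 ± 0.34, with the reference above background on 6 and 9 arrays. For Pthlh the 6 arrays belong to its probe at 4.32, while its probe at 5.14 had 0, and the gene read 1.95 with normexp and loess. Ihh, the hedgehog ligand of maturing chondrocytes, reached 2.88 ± 0.39 as the mean of probes at 2.02 and 3.75. With normexp and loess Ihh read 0.81 and was not called.

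Genes of the future joints were higher at 10 of 12, 83.3% against 16.1% of all genes. Their median was 3.72, or 2.10 with genes not well above background in the reference at their bound. Gdf5, the ligand that marks the joint interzone, read 4.57, 4.94 and 5.63. Its relative Gdf6 reached 4.40 ± 0.56 and Erg, a factor of joint cartilage, 4.98 ± 0.33, with the reference above background on 1 and 7 arrays. The Erg probes stood apart at 2.80 and 7.16. With normexp and loess Gdf6 and Erg read 1.78 and 2.75. Sfrp2, a secreted Wnt inhibitor, reached 4.53 ± 0.22. For all 4 genes the deposited ratio of every array lay above 3, and the SD was at most 0.56.

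Genes of mineralised bone went the other way or were near the reference. Of 14 tested, 2 were higher, 14.3% against 16.1% of all genes, and 6 lower, 42.9% against 15.8%. Their median was -0.58, and Col10a1 and Ibsp were not bright enough to test. Spp1, which encodes the bone matrix protein osteopontin and is also made by macrophages, read -9.57, -9.33 and -8.49, a 593-fold mean difference (adjusted p = 5.94e-13). Both channels were above background on all arrays, and it was the lowest of all 19073 tested genes. Mmp13, the collagenase of the growth plate, was at least 4.04-fold lower (adjusted p = 1.64e-11), and Mmp9, its partner from osteoclasts, stood at -2.76 ± 0.18. Sp7, the factor that commits osteoblasts, was higher at 2.79 ± 0.63, with the reference above background on 4 arrays, but read 1.24 and was not called with normexp and loess.

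Of 11 tendon genes 6 were higher, 54.5% against 16.1% of all genes, and 3 lower, 27.3% against 15.8%. Kera, a small keratan sulfate proteoglycan, reached 7.15 ± 0.36 and Thbs4, a thrombospondin of tendon, 6.62 ± 0.48, with the reference above background on 7 and 2 arrays. With normexp and loess Kera and Thbs4 read 4.84 and 3.22. Scx, the tendon lineage factor, lay between 1.67 and 2.10 on all arrays. The lower tendon genes included Egr1 at -4.77 ± 0.31, which is also an immediate early gene. Of 25 fibrous matrix genes 5 were higher and 4 lower, shares of 20% and 16% that lie near the 16.1% and 15.8% of all genes, with a median of -0.42 that turned to 0.06 with median centring. Lum, a collagen-binding proteoglycan, reached 5.95 ± 0.27 and Fbn2, the fibrillin of embryos, 5.36 ± 0.34, while Bgn, another small proteoglycan, stood at -3.03 ± 0.57. The Bgn probes read -3.74 and -2.32, the latter with forelimb above background on 1 array. Col1a1, the chain of the commonest collagen, was not called at -0.81 ± 0.46.

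Of 16 proteoglycan genes 3 were higher, 18.8% against 16.1% of all genes, and 5 were lower, 31.2% against 15.8%. Gpc3, a glypican of growing embryonic tissue, read 7.17, 7.49 and 8.07, a 186-fold mean difference (adjusted p = 1.15e-12). All arrays were close together and both channels were above background on each. Cd44, the hyaluronan receptor, was lower at -3.78 ± 0.30. Of 21 chondroitin sulfate synthesis genes 6 were higher, 28.6% against 16.1% of all genes, and 2 were lower, 9.5% against 15.8%. Chsy1, the gene removed in the knockouts, read 1.31, 1.85 and 2.02 in these normal limbs, a mean of 1.76 ± 0.26 (adjusted p = 9.38e-06). Its relative Chsy3 reached 2.95 ± 0.49, with the reference above background on 2 arrays, and was not called with normexp and loess at 0.90. Chst3, which sulfates chondroitin in cartilage, reached 2.85 ± 0.26.

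Muscle genes were high in both regulators and contractile proteins. Regulators were higher at 9 of 11, 81.8% against 16.1% of all genes, and lower at 1. Myod1 and Myog, the factors that drive myoblast differentiation, read 4.04, 4.49, 4.86 and 3.80, 4.08, 4.59 on their lowest, median and highest arrays. Pax7, a factor of later muscle progenitors, averaged 3.12 but ranged from 1.39 to 4.15, with the reference above background on 1 array. Pax3, the factor of migrating progenitors, was lower at -3.50 ± 0.41, with forelimb above background on 6 arrays. With normexp and loess neither was called, Pax7 at 0.63 and Pax3 at -1.29 (adjusted p = 1 and 0.0674). Contractile genes were higher at 24 of 28, 85.7% against 16.1% of all genes, with a median of 3.23, or 2.84 with bounds. Actn2, the actinin of the Z-disc, reached 6.07 ± 0.19, Myh3, the embryonic myosin, 5.69 ± 0.28, and Myh7, the slow myosin, 5.26 ± 0.29. Sln, a regulator of the muscle calcium pump, reached 6.42 ± 0.47. Acta1, skeletal actin, read 2.36, 2.60 and 3.15, Mylpf reached 4.25 ± 0.32 and Myl1 3.79 ± 0.18, for the promoters printed above.

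**Figure D2:**
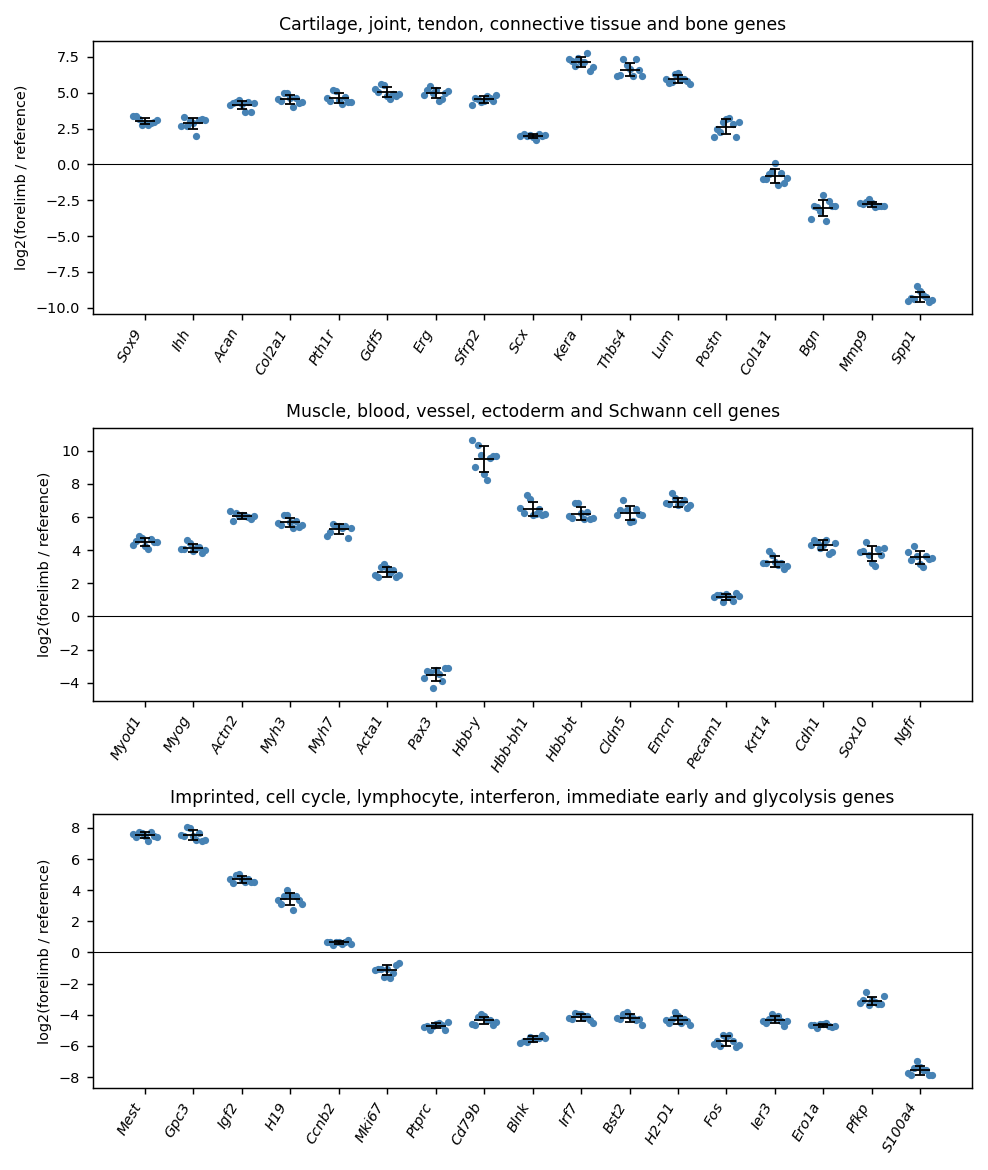
Log2 ratio of forelimb to reference (y axis) on each of the 9 wild-type arrays (points, in the order of replicate number) for named genes grouped by role; black bars give the mean and SD. The arrays lie close together against the size of most ratios: Col2a1 spans 4.02 to 4.99 and Spp1 -9.57 to -8.49.

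Most genes of red blood cells and vessels were also high. Erythroid genes were higher at 11 of 12, 91.7% against 16.1% of all genes, with a median of 5.05. Hbb-y, an embryonic beta-like globin of primitive red cells, read 8.22, 9.65 and 10.65, a 722-fold mean difference (adjusted p = 3.28e-11) on a probe at chr7:103726719-103726778 (mm8). Hbb-bh1, another embryonic globin, reached 6.48 ± 0.45 and the adult-type Hbb-bt 6.20 ± 0.39. Near-identical globin genes may share probes, so these ratios are not assigned to a single copy with certainty. Endothelial genes were higher at 15 of 18, 83.3% against 16.1% of all genes, with a median of 3.86. Emcn, an endothelial sialomucin, reached 6.90 ± 0.27, and Kdr, the main VEGF receptor, 6.82 ± 0.41, with the reference above background on 7 arrays for Emcn and 1 for Kdr, which read 3.48 with normexp and loess. Cldn5, a tight junction claudin of vessels, read 5.68, 6.18 and 7.01. Pecam1, a widely used vessel marker, was only slightly beyond 2-fold at 1.19 ± 0.18 (adjusted p = 0.0309). The Pecam1 call was lost with normexp and loess at 0.70, in arrays of either slide position alone, and when array 2, 3, 5, 6, 8 or 9 was left out (adjusted p = 0.05 to 0.0771).

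Of 19 lymphocyte genes 13 were lower, 68.4% against 15.8% of all genes, and 2 higher, 10.5% against 16.1%, with a median of -2.56. Ptprc, the common leukocyte antigen CD45, read -4.95, -4.72 and -4.48 as a mean of 4 probes from -6.53 to -3.80, of which 2 were not well above background in forelimb on any array. Blnk and Cd79b of the B cell receptor pathway stood at -5.56 ± 0.17 and -4.36 ± 0.24, and Cd3g of the T cell receptor at -5.16 ± 0.61. Macrophage genes went both ways, with 7 of 16 higher and 7 lower, 43.8% each against 16.1% and 15.8% of all genes. The higher ones included C1qa, a complement subunit of tissue macrophages, at 4.05 ± 0.34, Mrc1, the mannose receptor, at 3.72 ± 0.80, and Lyve1, at least 2.26-fold higher (adjusted p = 2.08e-10). The reference was above background on 4 arrays for C1qa and 1 for Mrc1, and with normexp and loess Mrc1 and Lyve1 read 1.16 and 1.27 and were not called (adjusted p = 0.453 and 0.123). The lower ones included Cd14, a receptor for bacterial lipopolysaccharide, at -4.91 ± 0.33. Lyve1, a hyaluronan receptor, is also a marker of lymphatic vessels.

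Ectoderm and nerve markers were found in the tissue as well. Surface ectoderm genes were higher at 12 of 17, 70.6% against 16.1% of all genes. The 2 lower ones, 11.8% against 15.8%, were the keratins Krt8 (-4.14 ± 0.16) and Krt18 (-3.64 ± 0.14) of simple epithelia. Krt14, a keratin of basal epidermis, read 2.87, 3.22 and 3.92, and Cdh1, E-cadherin, 3.80, 4.32 and 4.64. Tfap2c, an ectodermal factor, was at least 3.75-fold higher (adjusted p = 4.65e-09). Wnt7a, the Wnt of the back ectoderm, averaged 4.35 ± 0.50, or 1.62 with normexp and loess, with the reference above background on 1 array. Schwann cell and neural crest genes were higher at 8 of 10, 80% against 16.1% of all genes, and lower at 1. Gfra3, a receptor of Schwann cell precursors, reached 7.10 ± 0.46 with the reference above background on 8 arrays, Ngfr, the low-affinity neurotrophin receptor, 3.56 ± 0.37 over probes at 1.58 and 5.54, and Sox10, the lineage factor, 3.79 ± 0.45. Dct, a melanin enzyme of pigment cell precursors, reached 7.07 ± 0.63, or 2.93 with normexp and loess, with the reference above background on 1 array. Neuronal genes were higher at 5 of 11, 45.5% against 16.1% of all genes, and lower at 1, and 5 were not called. For 5 of the 11, Nefm and Nefl among them, no array had the reference well above background. These passed the probe filter only through forelimb, and with them at their bound the list median of 1.22 became 0.97. Nefm and Nefl, the neurofilament subunits, were at least 5.00-fold and 4.82-fold higher (adjusted p = 2.58e-11 and 1.82e-12). Tubb3, a tubulin used to mark neurons, was not called at 0.97 ± 0.19.

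The pathway counts that follow stand beside 16.1% of all genes higher and 15.8% lower. Wnt pathway genes were higher at 13 of 19 (68.4%) and lower at 1, with a median of 3.27. Wif1, a secreted Wnt inhibitor, was at least 18.0-fold higher (adjusted p = 3.41e-12). The inhibitors Dkk1 and Frzb reached 6.20 ± 0.58 and 5.65 ± 0.42, with the reference above background on 1 and 2 arrays. With normexp and loess Dkk1 and Frzb read 2.39 and 2.89. Wnt3, a ligand of limb ectoderm, reached 5.75 ± 0.49, or 2.71 with normexp and loess. Its probes read 4.52 and 6.98, with the reference above background on 8 and 0 arrays. Hedgehog pathway genes were higher at 7 of 11 (63.6%) and lower at 0, while Shh was not bright enough to test. The target Gli1 stood at 3.25 ± 0.62. The target Hhip was at least 1.89-fold higher, a bound under the 2-fold of the test that gave its adjusted p of 3.43e-08. With normexp and loess Gli1 and Hhip read 0.93 and 1.01 and were not called. The reference was above background on 1 array for Gli1. BMP pathway genes were higher at 8 of 18 (44.4%) and lower at 1. The ligand Bmp2 reached 6.45 ± 0.45, or 2.38 with normexp and loess. Some of its reference spots were above background on 3 arrays but the probe as a whole on 0. The receptor Bmpr1b was at least 3.78-fold higher (adjusted p = 1.32e-09). FGF genes were higher at 7 of 14 (50%) and lower at 1, Fgf7 at -3.22 ± 0.36. The higher ones included Fgf9 at 3.49 ± 0.33, with the reference above background on 8 arrays, and Fgf18 at 3.17 ± 0.40. Notch genes were higher at 9 of 15 (60%) and lower at 0. Heyl, a Notch target, stood at 4.77 ± 0.53, with the reference above background on 1 array, and read 1.79 with normexp and loess. Retinoid genes were higher at 7 of 12 (58.3%) and lower at 1. Aldh1a2, which makes retinoic acid, reached 4.92 ± 0.29 and Cyp26b1, which breaks it down, 4.01 ± 0.31, while Aldh1a1 was lower at -4.01 ± 0.71.

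Imprinted growth genes, expressed from the copy of a single parent, were higher at 14 of 17, 82.4% against 16.1% of all genes. Their median was 3.41. Mest read 7.14, 7.49 and 7.74, a 183-fold mean difference (adjusted p = 4.13e-13). Cdkn1c, an inhibitor of the cell cycle, reached 6.34 ± 0.23, Igf2, the fetal growth factor, 4.69 ± 0.21, and H19, the noncoding RNA beside it, 3.41 ± 0.38. Cell cycle and replication genes, in contrast, lay near the reference: of 25 tested, limma's treat called 0 in either direction, also 0 at an unadjusted p under 0.05, and the ends of their range were Mki67 at -1.14 ± 0.31 and Birc5 at 0.75 ± 0.17. Housekeeping genes had a median of -0.18, and Pgk1 (-1.76 ± 0.11) and Hprt (-1.44 ± 0.24) were lower. With normexp and median centring, which moved the median of all genes from 0.08 to 0.26, the housekeeping median became 0.18 and neither gene was called.

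The largest ratios measured in both channels on all arrays included, beside Hbb-y, Gpc3 and Mest, the genes Tril at 7.00 ± 0.27, Wdr86 at 6.89 ± 0.33, Penk, the enkephalin precursor, at 6.60 ± 0.15, Shisa2 at 6.51 ± 0.44, 6330403K07Rik at 6.49 ± 0.37, Galnt16, a mucin-type glycosyltransferase, at 6.43 ± 0.19, and Mfap4, a microfibril protein, at 6.38 ± 0.25. For Tril and Penk this held for 1 probe each: 2 of 3 Tril probes had the reference above background on 0 and 2 arrays and 1 of 2 Penk probes on 2, and with normexp and loess the genes read 3.90 and 4.55. Where the reference was not well above background, the largest bounds were Fndc3c1 at least 30.3-fold (adjusted p = 1.41e-12), Sostdc1, an antagonist of BMP and Wnt signals, at least 29.8-fold (adjusted p = 1.54e-12), and Kcne1l at least 24.1-fold (adjusted p = 1.42e-11). Prnd, Wif1, Slitrk6, Dcaf12l1 and Ebf2 followed at bounds of 13.3 to 21.7. In all, 907 genes had the reference not well above background on every array, and 200 of them had a bound over 2-fold. Such genes passed the probe filter only through their forelimb signal, so the direction of a call was all but fixed by the filter. Of them 742 were called higher and 0 lower.

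Interferon and antigen presentation genes were lower at 14 of 16, 87.5% against 15.8% of all genes, with a median of -3.42. Ifit1 was at least 7.43-fold lower (adjusted p = 1.62e-10). Isg15 and Bst2, whose promoters are printed above, stood at -4.10 ± 0.27 and -4.20 ± 0.23. Irf7, a factor of the interferon response, read -4.54, -4.21 and -3.86, and H2-D1, a class I histocompatibility gene, -4.65, -4.35 and -3.84. No array came near 0 for these genes. The 2 tested members not called were the class II genes H2-Eb1 at 0.06 ± 0.29 and H2-Ab1 at 0.76 ± 0.29.

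Immediate early genes, which cells switch on within minutes of a stimulus, were lower at 11 of 13, 84.6% against 15.8% of all genes. Their median was -2.16. Fos read -6.07, -5.68 and -5.27, and Ier3 and Junb averaged -4.32 ± 0.23 and -3.32 ± 0.26. Glycolysis and hypoxia genes were lower at 10 of 16, 62.5% against 15.8% of all genes, with a median of -1.42. Ero1a, an oxidase of the secretory pathway induced by low oxygen, lay between -4.83 and -4.51, and Pfkp and Bnip3 averaged -3.09 ± 0.26 and -2.84 ± 0.20. The Pfkp probes spread from -4.41 to -1.28.

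Beyond these lists, the lowest ratios measured in both channels on all arrays after Spp1 were S100a4 at -7.57 ± 0.30, Ifi202b at -6.71 ± 0.37, S100a6 at -6.62 ± 0.26, Msln, the mesothelial surface protein mesothelin, at -6.26 ± 0.19, the chemokine Ccl4 at -6.12 ± 0.69, and Lgals3, galectin-3, at -6.04 ± 0.41. S100a4 and S100a6 encode calcium-binding proteins common in cultured and migrating cells. The inflammatory caspase Casp4 and the interleukin receptor gene Il1rl1 averaged -6.02 ± 0.72 and -5.95 ± 0.42. The Il1rl1 value is a mean of probes at -5.72, -7.35 and -4.76, and the probe at -7.35 had forelimb above background on 0 arrays. Where forelimb was not well above background, Clec4d, a lectin of myeloid cells, was at least 19.4-fold lower (adjusted p = 1.15e-12), Tcrb-J at least 7.17-fold (adjusted p = 2.44e-11), Ifi207 at least 7.08-fold (adjusted p = 4.31e-11) and Irf4 at least 6.16-fold (adjusted p = 2.79e-11). Forelimb was not well above background on all arrays at 327 genes, of which 322 were called lower and 0 higher. These genes passed the probe filter only through the reference, so here too the direction was all but fixed by the filter.

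**Figure D3:**
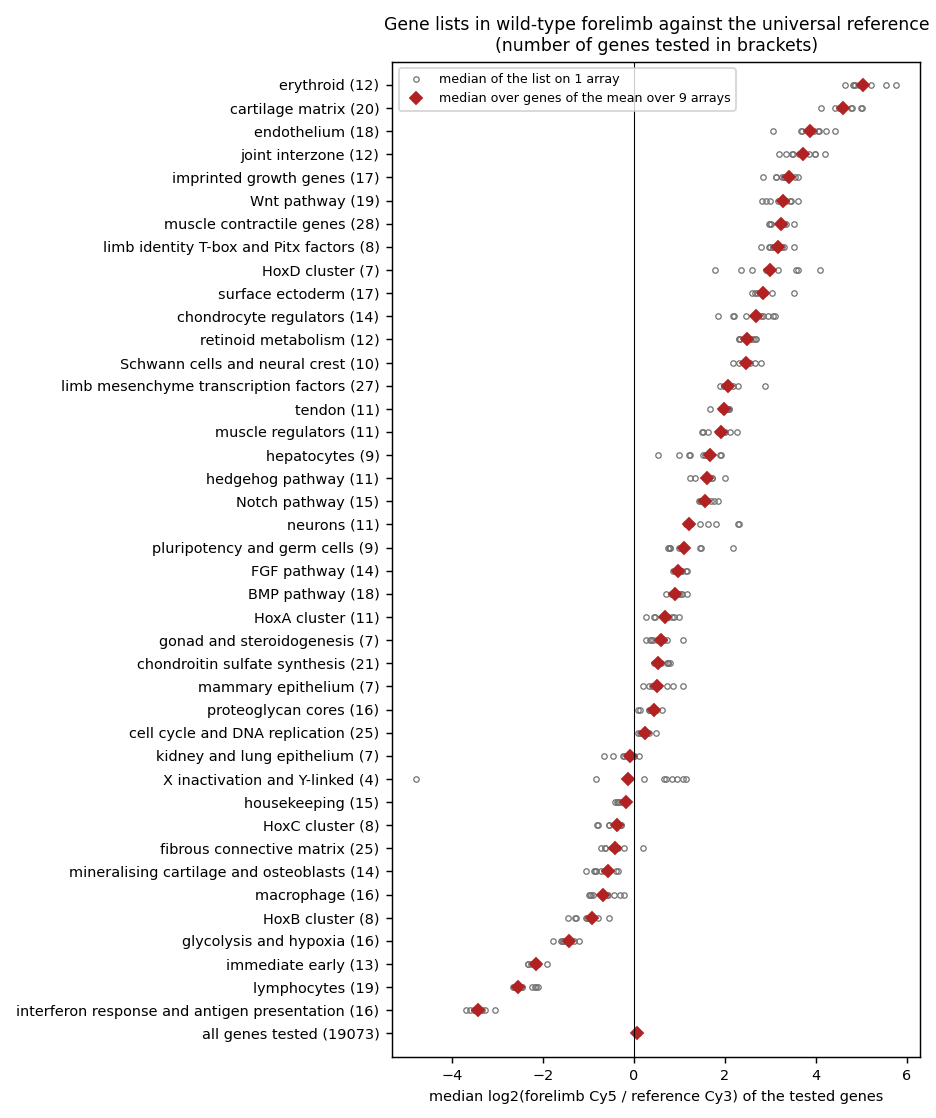
Median log2 ratio of forelimb to reference (x axis) of the tested genes of each list (y axis, number tested in brackets); open circles are single arrays and diamonds the median of the means over 9 arrays. Lists run from interferon response and antigen presentation at -3.42 to erythroid at 5.05, with all genes at 0.08 in the bottom row.

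Hepatocyte genes were higher at 5 of 9 tested, 55.6% against 16.1% of all genes, and lower at 1, Afp. But Alb, Fgg and Fgb had bounds of only 1.37-fold, 1.24-fold and 1.15-fold, and the list median of 1.66 became 0.31 with the bounds in place. With normexp and loess Alb, Fgg and Fgb read 0.48, 0.42 and 0.23 and were not called. Kidney and lung genes were higher at 1 of 7 and lower at 2, mammary genes at 1 and 2 of 7, and gonad genes at 1 and 1 of 7. For 1 of 7 the share of 14.3% lies near that of all genes in either direction. For 2 of 7 lower it is 28.6%, against 15.8% of all genes. Pluripotency and germ cell genes were higher at 4 of 9, 44.4% against 16.1% of all genes, and lower at 1. Sox2 was at least 1.44-fold higher, a bound under the 2-fold of the test that gave its adjusted p of 5.67e-07. Dppa4 was at least 2.16-fold lower (adjusted p = 5.94e-13). Neither was called with normexp and loess, at 0.56 and -1.14, nor were the higher Zfp42 and Esrrb, at 0.80 and 0.46. The part of other tissues in the forelimb samples was not tested.

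Genes of the sex chromosomes were among those that differed most between the 9 wild-type samples. Xist, the RNA of the inactive X chromosome, lay between -7.31 and -6.65 on 7 arrays but at 0.32 on wild-type 8 and 0.38 on wild-type 9. Its mean of -5.35 ± 3.24 (adjusted p = 0.00149) describes neither set of arrays. Forelimb signal for Xist was well above background on 4 arrays. The Y-linked genes ran opposite on wild-type 9: Ddx3y read -5.96, Eif2s3y -4.77 and Kdm5d -4.80, against lowest values of 0.27, 1.55 and 0.19 on the 7 arrays with low Xist. On wild-type 8 they were in between, at -1.66, -0.52 and -1.17, beside its high Xist. The labels give no sex. Both arrays lie at slide position 2, which also holds wild-type 7. Without arrays 8 and 9, 2937 genes were higher and 2905 lower, an omission chosen after seeing the data, and among the named genes Afp and Pecam1 were no longer called (adjusted p = 0.143 and 0.136).

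**Figure D4:**
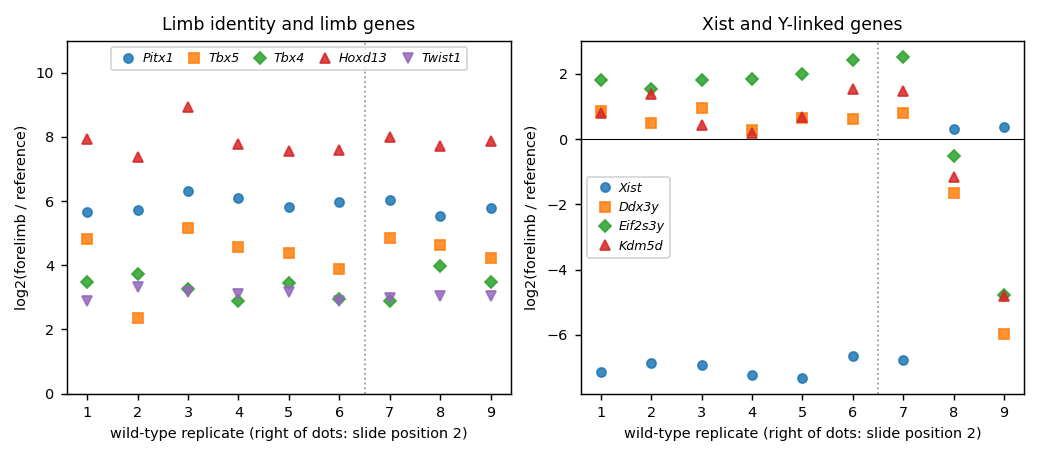
Log2 ratio of forelimb to reference (y axis) by wild-type replicate (x axis), for limb genes on the left and for Xist and Y-linked genes on the right; arrays right of the dotted line lie at slide position 2. Tbx5 is low at 2.37 on array 2 while Pitx1 is not, and Xist is high on arrays 8 and 9, at 0.32 and 0.38.

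Other genes with a large spread moved in sets. Olfr430, Olfr1153 (odorant receptors) and Kcna7 (a potassium channel) were above 2 on arrays 3, 4, 5 and 7 and below -1 on arrays 1, 2 and 8. Olfr430 read -2.08 on array 1 and 2.99 on array 7, and Kcna7 -2.04 and 2.76. Ugt2b34, Clcn1 and RP23-64F17.3 were also at their lowest on arrays 1, 2 or both and high on arrays 4 and 7. Tatdn2 and Lars2 shared another order, at 2.49 and 2.37 on array 1 and -1.73 and -1.92 on array 6. Afp, the fetal liver protein, was 1.17 on array 1, -0.69 on array 2 and between -4.16 and -1.27 on the others. Its call (-2.44 ± 1.80, adjusted p = 0.0299) was lost when array 4, 5, 6, 7, 8 or 9 was left out (adjusted p = 0.0557 to 0.0727), and its liver companion Alb was highest on arrays 1 and 2, at 4.36 and 3.92. The rule took the 10 genes with a name and the largest SD among those above background in both channels on all arrays, which leaves out Xist, Ddx3y, Kdm5d and unnamed probes. With normexp and loess 8 of the 10 were again among the 10 largest. In all, 90 of 14604 genes had an SD over 1.

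**Figure D5:**
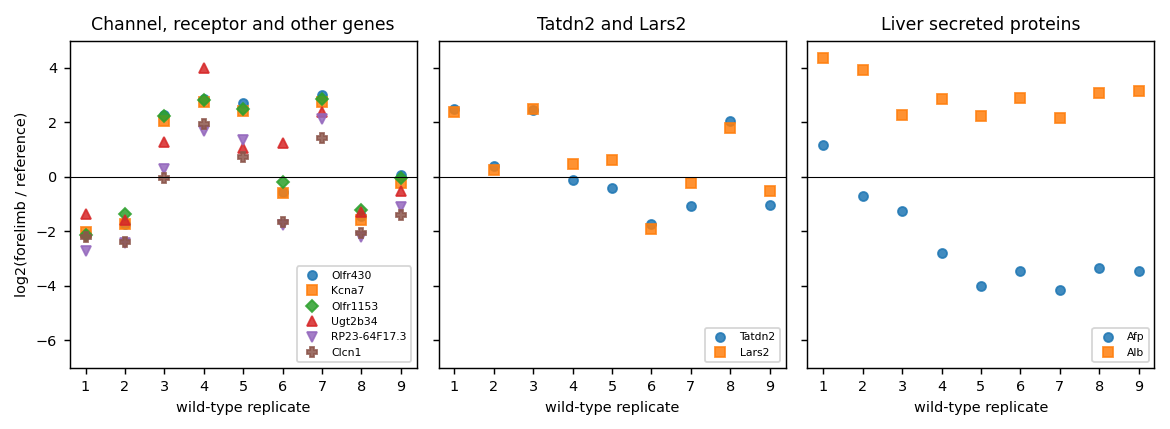
Log2 ratio of forelimb to reference (y axis) by wild-type replicate (x axis) for genes with a large spread between arrays, and for Alb beside Afp. Kcna7 spans -2.04 to 2.76 and Afp -4.16 to 1.17, while the points of Kcna7, Olfr430 and Olfr1153 nearly coincide on each array.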

How the data were processed

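Per the file headers, scanned arrays were read with Agilent Feature Extraction 9.5.3.1 (9.5 in the submitters' processing notes), with probes placed on mm8. The deposited intensity values are spot signals with local background, and the authors' flags mark spots well above background or outlying. The deposited log10 ratio is Cy5 over Cy3 after the software's background and LOWESS dye steps. It was 0 at 14.3% to 17.5% of spots per array, while neither channel gave a usable signal at 13.5% to 16.7%. Ratios were turned to log2, outlier spots left out, spots averaged per probe and probes per gene.

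Probes well above background in either channel on at least 5 of 9 arrays were kept, 28528 of 41174. A probe counted as above background on an array where no fewer of its spots were flagged so than not, and a gene took its best probe's count. Accessions and symbols were matched to RefSeq. Of the probes, 23366 were named by accession, 103 by another accession, 6684 by current symbol, 2890 by older symbol and 829 by the design's name, and 7302 stayed unnamed. Among renamed genes, Hbb-bt and Ero1a appear in older lists as Hbb-b1 and Ero1l. For 18 genes an array without a value was dropped from the mean. Mean ratios were tested against 2-fold by treat after lmFit (limma 3.58.1, R 4.3.3), with Benjamini-Hochberg adjustment at 0.05. The fit was tested on simulated data. Bounds used normexp (offset 50), loess and Aquantile per channel.

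Members and lists were chosen with earlier results of these data known. Named genes were 38 key genes, the 12 largest and 12 smallest ratios measured in both channels on all arrays, the 8 largest bounds each way, up to 4 extreme members per list and the 10 largest SDs among named genes measured in both channels on all arrays. Other list members named were chosen after their values were seen. Knockout arrays were not used. Alternatives changed the background correction, normalization, probe filter, summary per gene, test threshold, variance model, weights, blocking and arrays. With normexp and median centring the higher and lower calls were 2010 and 833, against 3078 and 3006.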

Additional observations from a re-analysis of the deposited data

Results flagged for a closer look

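Values of 262 gene and list levels were checked for 1 array far from the other 8 by Dixon's test, which by chance marks about 1 in 20 groups, and 26 were marked. All values are log2 ratios of forelimb to reference, and no explanation was tested.

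On wild-type 9 the Y-linked genes Ddx3y (-5.961), Eif2s3y (-4.766) and Kdm5d (-4.8) were far below the other arrays, as was the list of Xist and Y-linked genes (-4.783). Hapln1 was also low there (5.099, others 6.133 to 7.17) and Hey2, a Notch target, high (4.68, others 2.597 to 3.257).

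On wild-type 6 the hedgehog genes Boc (2.295, others 2.922 to 3.139), Gli1 (1.755, others 3.084 to 3.81) and Ihh (2.006, others 2.646 to 3.283) were each lowest. Notch4 (1.76) and Scx (1.67) were lowest there too, and Scx is itself the median of the tendon list (1.67). Clec4d was highest on that array at -7.029.

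On wild-type 2 Tbx5 read 2.368 (others 3.871 to 5.146), Ssxb2 was highest at -5.583, and the median of the limb mesenchyme list was highest at 2.875 (others 1.891 to 2.286). On wild-type 3 Hoxd13 (8.924), Cdkn1c (6.818) and the surface ectoderm list (3.52) were highest. On wild-type 4 Cd14 (-4.2) and Cd3g (-3.732) were highest and Zfp42 (2.129) lowest. On wild-type 1 Lalba (2.78) and the pluripotency list (2.18) were highest and Meox2 (5.364) lowest. Kcne1l was lowest on wild-type 5 at 7.483.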

How the results depend on the processing

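The counts of higher and lower genes, 3078 and 3006, were 1449 and 1335 with normexp and loess, 2010 and 833 with normexp and median centring, 1599 and 1935 among genes above background in both channels on all arrays, and 8440 and 7493 against a ratio of 1. At 1.5-fold, 4656 genes were higher. Leaving out 1 array gave 2989 to 3073 higher and 2908 to 2973 lower. Of 196 called named genes, none changed sign in the 24 settings, of which the stricter filter left a value for 109; 34 were not called with normexp and loess and 40 with median centring, and 3 were lost in some omission of an array. With normexp and loess the named log2 ratios had a median of 61.1% of their reported size.

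Signs turned only for values that were not called. With median centring Clcn1 read 0.034, Ddx3y 0.27 and RP23-64F17.3 0.17, and the medians of the fibrous matrix and housekeeping lists 0.063 and 0.18. Ddx3y read 0.64 in arrays of position 1 and 0.66 without arrays 8 and 9, and -0.49 to 0.37 when single arrays were left out. Kdm5d ranged from -0.12 to 0.67 in the same way. In arrays of position 2, Kdm5d read -1.50, Eif2s3y -0.92 and Tatdn2 -0.020. Among genes above background in both channels on all arrays, the medians were -0.0056 for all genes, 0.62 for HoxC, 1.49 for kidney and lung and -0.69 for mammary genes. The cause of these changes was not tested.

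No paired analysis was possible because no second group of arrays was compared, so replicate numbers link no samples; forelimb and reference are already paired within each array's ratio. Dim reference signals limit the size of many ratios: no array had the reference well above background for 907 genes, of which 905 have a bound, and none had forelimb so for 327.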
